A study of Mus musculus with 8 samples.

Results

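The 35 genes described here are genes of the interferon response and of MHC class I antigen presentation, taken by symbol from a table of 34094 genes, and all 35 were found in it. They comprise 3 RNA sensing genes, 5 signalling genes, 17 antiviral effector genes, 2 guanylate-binding protein genes (Gbp2 and Gbp3) and 8 MHC class I genes. The table comes from RNA-seq of the CA1 field of the mouse hippocampus. It holds 4 libraries of mice in which Brpf1 was conditionally knocked out (cKO) and 4 libraries of wild-type (WT) mice. Brpf1 encodes a scaffold of histone acetyltransferase complexes. All animals were C57BL/6 mice of 2 months, and the series title places the loss in the hippocampus. The sample titles call the cKO animals a Brpf1 knockdown. The sources used here do not give the Cre driver, the exons removed or the mouse behind each library, and a protocol speaks of 3 pairs of mice. The p-values therefore reflect how much these libraries vary, and part of that may be technical. Brpf1 had 848, 1032, 897 and 1004 normalized reads in cKO replicates 1 to 4, against 1358, 1451, 1473 and 1380 in WT replicates 1 to 4, so the libraries fit their labels. Normalized reads are reads divided by the size factor of the library.

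Interferons are secreted proteins that cells release after sensing foreign or misplaced nucleic acid. Type I interferons act through JAK kinases on a complex that includes STAT2 and IRF9 and binds the interferon-stimulated response element (ISRE) in promoters of antiviral genes. Interferon-gamma, made mainly by T cells and natural killer cells, acts through gamma-activated sites (GAS) in promoters. It induces guanylate-binding proteins, immunity-related GTPases and the MHC. MHC class I molecules show peptides, cut by the proteasome and carried into the endoplasmic reticulum by TAP, to CD8 T cells. In brain, many interferon-induced genes and MHC class I are prominent in microglia and vessel cells, and hippocampal neurons also express MHC class I, which has been linked to synaptic plasticity.

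RefSeq promoter windows (build GRCm38.p6) were at hand for 27 of the 35 members. In the 250 bases before the start, the letters GAAANNGAAA or, on the other strand, TTTCNNTTTC, a core of the ISRE, were present in 10 of those 27 members (37.0%), against 936 of 27025 genes (3.46%). The 10 are Gbp2, Gbp3, B2m, Ifit1, Ifit3, Isg15, Bst2, Oas1a, Rsad2 and Stat2. The GAS letters TTCNNNGAA, which read the same on both strands, were present in 5 of the 27 (18.5%), against 2197 of 27025 genes (8.13%). Those 5 are Bst2, Ifit2, Irf1, Oas1a and Psmb8. A match of letters describes the window and does not show that a factor binds there. The following 6 windows, bases −160 to −1 before the start, are shown because they hold ISRE letters and belong to genes that peaked in different libraries, Gbp2, Gbp3 and B2m in cKO replicate 2 and Ifit1, Ifit3 and Isg15 in WT replicate 4. Capitals mark the ISRE letters.
Gbp2: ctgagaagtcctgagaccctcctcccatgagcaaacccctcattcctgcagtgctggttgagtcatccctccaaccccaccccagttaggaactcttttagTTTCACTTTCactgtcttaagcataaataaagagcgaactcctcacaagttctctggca
Gbp3: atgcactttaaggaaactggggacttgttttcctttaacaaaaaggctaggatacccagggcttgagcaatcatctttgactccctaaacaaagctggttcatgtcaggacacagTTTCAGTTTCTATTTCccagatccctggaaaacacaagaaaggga
B2m: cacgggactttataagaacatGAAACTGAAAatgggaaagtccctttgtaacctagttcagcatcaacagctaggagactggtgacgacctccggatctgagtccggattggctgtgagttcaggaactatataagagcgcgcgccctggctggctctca
Ifit1: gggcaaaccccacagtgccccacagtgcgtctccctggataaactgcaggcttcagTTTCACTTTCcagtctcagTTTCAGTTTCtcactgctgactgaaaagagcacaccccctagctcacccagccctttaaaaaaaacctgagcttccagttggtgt
Ifit3: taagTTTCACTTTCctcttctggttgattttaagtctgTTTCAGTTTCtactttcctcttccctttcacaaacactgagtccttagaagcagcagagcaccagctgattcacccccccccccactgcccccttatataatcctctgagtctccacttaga
Isg15: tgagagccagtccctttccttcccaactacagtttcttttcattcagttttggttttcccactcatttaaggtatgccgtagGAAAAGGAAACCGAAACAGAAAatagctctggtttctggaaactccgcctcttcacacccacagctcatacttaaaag

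These windows lie on the plus strand at chr3:142620503-142620662 (Gbp2), chr3:142559884-142560043 (Gbp3), chr2:122147527-122147686 (B2m), chr19:34640729-34640888 (Ifit1) and chr19:34583369-34583528 (Ifit3), and on the minus strand at chr4:156200819-156200978 (Isg15). Gbp2 has 1 match, which begins at base −59, and B2m has 1, at −139. Ifit1 has 2, the nearer to the start at −85, and Ifit3 has 2, at −156 and −122. The 2 matches of Gbp3, at −45 and −39, overlap, as do the 3 of Isg15, at −78, −72 and −66.

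Reads on genes numbered 40330226 to 46559795 per cKO library and 42346644 to 49897832 per WT library. Markers of CA1 pyramidal neurons were abundant in all 8 libraries. The summed level of 8 such markers was 162544 to 189785 normalized reads in cKO and 165954 to 192806 in WT. Their log2 fold changes were positive for 3 and negative for 5, with a median of −0.03. Fibcd1, 1 of the 8, had 5176 to 6350 normalized reads in cKO and 3865 to 5043 in WT. Markers of other tissue differed between libraries. The summed level of 10 choroid plexus markers ranged from 11022 to 49117 normalized reads in cKO and from 5609 to 171506 in WT, with the highest value in WT replicate 2. The summed level of 14 markers of T, NK and B cells was 471 in cKO replicate 2, against 58.3 to 160 in the other libraries. cKO replicate 2 also held the highest value of all 8 libraries for 20 of the 35 members (57.1%), against 15.4% of all genes tested. Values without this library are given beside those results that it moved most.

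**Figure D1:**
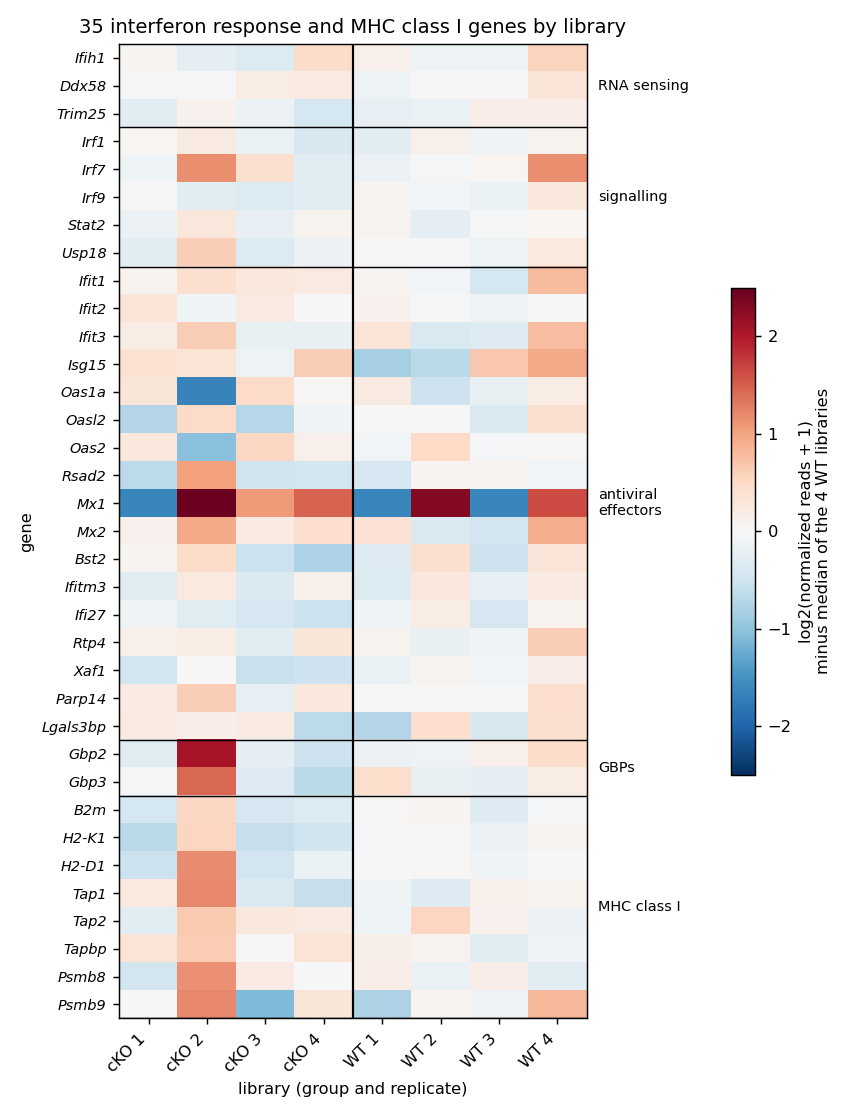
Each cell shows log2(normalized reads + 1) minus the median of the 4 WT libraries, for 35 members (rows, by role) in 4 cKO libraries (left) and 4 WT libraries (right). cKO replicate 2 is the highest library for both GBPs and for all 8 MHC class I members, while Irf7, Ifit1 and Ifit3 are also high in WT replicate 4.

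No member separated cKO from WT libraries at an adjusted p under 0.05 (limma, Benjamini-Hochberg over 26135 genes), where 5 of all genes tested did (0.0191%). Brpf1 itself did not pass, at a log2 fold change of −0.59 (SE 0.089, limma adjusted p = 0.132), although its groups did not overlap. The authors' deposited FDR for Brpf1 was 1.5e-07. The limma test can therefore miss a change of that size. All 35 passed the filter on low values, which asked for a normalized value of 1 or more in 4 or more libraries. Adjusted p ranged from 0.540 to 0.995 over the members. At an unadjusted p under 0.05, 1 member was higher in cKO (Tapbp) and 1 lower (Xaf1), of 35, against 4.07% of all genes higher and 4.6% lower. limma-voom on the recovered reads also gave 0 members at the adjusted threshold and 2 at the unadjusted one. The groups overlapped for all 35 members, where they did not for 4.92% of all genes tested. Log2 fold changes of cKO over WT were positive for 19 members and negative for 16, with a median of 0.02, beside −0.02 for all genes tested. They ranged from −0.39 for Xaf1 to 0.68 for Mx1, on the log2(normalized reads + 1) scale, so that differences of genes with few reads are understated. In the authors' deposited table the lowest FDR of a member was 0.315, for Tapbp, and 224 of 34094 genes (0.657%) had an FDR under 0.05.

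No RNA sensing member passed the test. The summed level of the 3 was 735 to 796 normalized reads in cKO libraries, against 739 to 826 in WT replicates 1 to 3 and 981 in WT replicate 4, the highest library for Ifih1 and Ddx58. Ifih1 and Ddx58 encode MDA5 and RIG-I, which detect viral RNA in the cytoplasm, and Trim25 encodes a ubiquitin ligase that activates RIG-I. Trim25 had 323, 417, 350 and 284 normalized reads in cKO replicates 1 to 4, against 336, 346, 437 and 434 in WT replicates 1 to 4. Its log2 fold change was −0.18 (SE 0.15, limma adjusted p = 0.749), and the groups overlapped. Ifih1 averaged 167 ± 43.4 normalized reads in cKO and 181 ± 43.5 in WT, and Ddx58 259 ± 24.8 in cKO and 253 ± 35.05 in WT (SD, n = 4 each).

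Of the 5 signalling members, 4 were highest in cKO replicate 2, against 15.4% of all genes tested, and 1 in WT replicate 4. Among the signalling members, Irf9 had the lowest p. Its product joins STAT2 in the complex that binds the ISRE. Irf9 had 511, 414, 394 and 419 normalized reads in cKO replicates 1 to 4, against 526, 478, 448 and 600 in WT replicates 1 to 4. cKO replicates 2, 3 and 4 lay below all WT libraries and cKO replicate 1 within their range, with a log2 fold change of −0.24 (SE 0.13, limma adjusted p = 0.621). Stat2 averaged 647 ± 103.7 normalized reads in cKO and 627 ± 58.6 in WT, and Irf1, a transcription factor of the interferon-gamma response, 378 ± 68.7 in cKO and 385 ± 49.1 in WT (SD, n = 4 each). Irf7, the factor that amplifies type I interferon production, had 49.7, 120, 71.0 and 44.0 normalized reads in cKO replicates 1 to 4, against 47.9, 51.8, 54.8 and 120 in WT replicates 1 to 4. A single library of each group, cKO replicate 2 and WT replicate 4, reached 120, and the log2 fold change was 0.05 (SE 0.38), or −0.24 (SE 0.36) without cKO replicate 2. Irf7 was chosen for values in full after they were seen. Usp18, a protease that removes ISG15 and dampens receptor signalling, ranged from 42.6 to 83.3 in cKO and from 49.3 to 63.9 in WT.

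The 17 effectors act directly against viruses or carry that response further. Of these, 8 had positive and 9 negative log2 fold changes, with a median of −0.02. The highest library was cKO replicate 2 for 6 of the 17, against 15.4% of all genes tested. It was WT replicate 4 for 5 of the 17, against 9.57% of all genes tested. Xaf1, an interferon-inducible gene whose product promotes apoptosis, had 148, 202.8, 140 and 144 normalized reads in cKO replicates 1 to 4, against 183, 214, 197 and 231 in WT replicates 1 to 4. cKO replicates 1, 3 and 4 were below every WT library and cKO replicate 2 was within the WT range. This gave a log2 fold change of −0.39 (SE 0.17), a limma p of 0.0418 and an adjusted p of 0.565. Ifi27, an interferon-inducible gene for a small hydrophobic protein, had 1596, 1388, 1280 and 1177 normalized reads in cKO replicates 1 to 4, against 1603, 1938, 1271 and 1814 in WT replicates 1 to 4. WT replicate 3 lay among the low cKO libraries, so the groups overlapped at a log2 fold change of −0.28 (SE 0.14, limma adjusted p = 0.6005).

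Mx1 and Mx2 encode GTPases that block virus replication, although laboratory strains such as C57BL/6 carry defective alleles of both. Mx2 had 29.6, 54.2, 31.7 and 37.3 normalized reads in cKO replicates 1 to 4, against 35.4, 21.3, 19.5 and 52.7 in WT replicates 1 to 4. Both groups held 1 library above 50, cKO replicate 2 and WT replicate 4, and the log2 fold change was 0.31 (SE 0.37, limma adjusted p = 0.840), or 0.13 (SE 0.39) without cKO replicate 2. Mx1 had 0, 16.1, 5.46 and 7.66 normalized reads in cKO replicates 1 to 4, against 0, 14.2, 0 and 8.64 in WT replicates 1 to 4. Its fold change, the largest among the members in size, had an SE of 1.13, rests on few reads and was 0.14 (SE 1.21) without cKO replicate 2.

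Ifit3, Ifit1 and Isg15 were highest in WT replicate 4 and were chosen for values in full because of it, after these were seen. Ifit3 had 345, 468, 268 and 266 normalized reads in cKO replicates 1 to 4, against 378, 234, 244 and 522 in WT replicates 1 to 4. Ifit1 had 129, 161, 145 and 141 in cKO replicates 1 to 4, against 127, 115, 88.3 and 210 in WT replicates 1 to 4. Isg15, a ubiquitin-like protein attached to other proteins, had 51.9, 50.2, 36.1 and 61.3 in cKO replicates 1 to 4, against 21.8, 24.4, 64.1 and 77.7 in WT replicates 1 to 4. For all 3 genes the groups overlapped, and the log2 fold changes were 0.01 for Ifit3 (SE 0.27), 0.16 for Ifit1 (SE 0.25) and 0.27 for Isg15 (SE 0.42). Without cKO replicate 2 that of Ifit3 was −0.16 (SE 0.27). WT replicate 4 was the highest library for 8 of the 35 members (22.9%), against 9.57% of all genes tested. The related genes Ifit3b and Ifit1bl1 may have taken or given reads in the authors' counting.

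Rsad2, the gene of viperin, which makes a chain-terminating nucleotide, had 58.2, 189, 65.6 and 66.1 normalized reads in cKO replicates 1 to 4, against 68.7, 97.5, 97.6 and 88.1 in WT replicates 1 to 4. cKO replicate 2 exceeded every other library and the other cKO libraries lay below every WT library. The log2 fold change was −0.07 (SE 0.35) over all 8 libraries and −0.46 (SE 0.22) without it. Oas1a and Oas2, synthetases of the oligoadenylates that activate RNase L, went the other way in that library. Oas1a had 9.04 normalized reads in cKO replicate 2, against 31.6 to 43.7 in the other cKO libraries and 21.3 to 36.4 in WT. Oas2 had 10.04 in cKO replicate 2, against 23.9 to 31.7 in the other cKO libraries and 20.8 to 31.5 in WT. Their log2 fold changes, −0.14 (SE 0.47) for Oas1a and −0.15 (SE 0.39) for Oas2, were 0.34 (SE 0.31) and 0.19 (SE 0.32) without that library. Rsad2, Oas1a and Oas2 were chosen for these values after they were seen. Bst2 (tetherin, which holds virions on the cell surface), Ifitm3 (which blocks viral entry), Ifit2, Oasl2, Rtp4, Parp14 and Lgals3bp had log2 fold changes between −0.28 and 0.12, with adjusted p from 0.803 to 0.987.

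**Figure D2:**
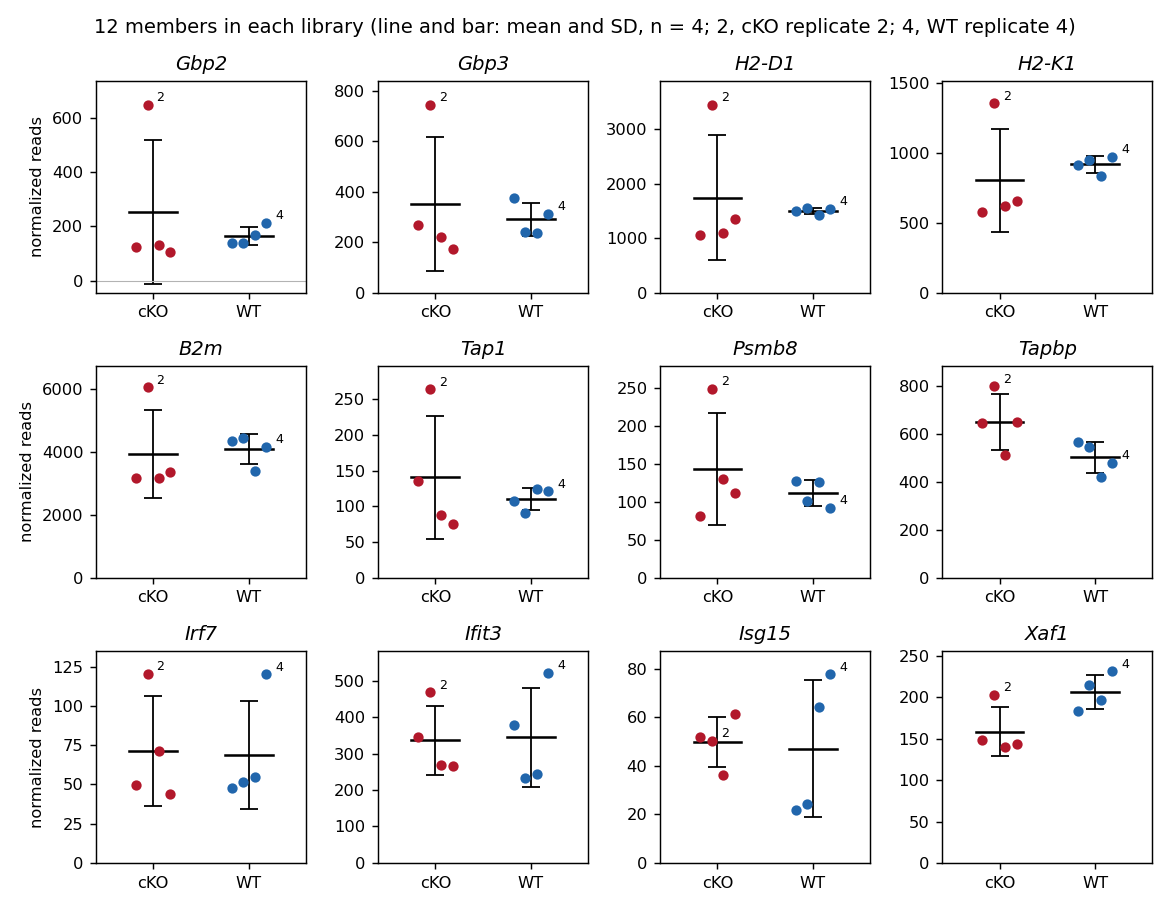
Normalized reads of 12 members in each of 4 cKO (red, left) and 4 WT (blue, right) libraries, with the mean and SD of each group. cKO replicate 2 (labelled 2) lies above every other library for both GBPs and all MHC class I genes drawn, and WT replicate 4 (labelled 4) is highest for Ifit3, Isg15 and Xaf1.

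The GBPs, large GTPases that coat and break the compartments of intracellular pathogens, differed widely among cKO libraries. Gbp2 had 124, 649, 132 and 107 normalized reads in cKO replicates 1 to 4, against 139, 140, 169 and 212 in WT replicates 1 to 4. Gbp3, given in full after its values were seen, had 267, 743, 221 and 172 in cKO replicates 1 to 4, against 375, 241, 235 and 313 in WT replicates 1 to 4. cKO replicate 2 stood 4.65-fold above the median of the other 7 libraries for Gbp2 and 3.09-fold for Gbp3. The log2 fold change of Gbp2 was 0.18 (SE 0.52, limma adjusted p = 0.958) over all 8 libraries and −0.43 (SE 0.20, adjusted p = 0.496) without cKO replicate 2. That of Gbp3 was 0.05 (SE 0.41, adjusted p = 0.986) over all 8 and −0.40 (SE 0.21, adjusted p = 0.546) without it.

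The MHC class I heavy chains and their light chain gave the same picture. H2-K1 and H2-D1 encode the classical heavy chains, and B2m encodes beta-2-microglobulin, the light chain that all class I molecules share. H2-D1 had 1051, 3450, 1096 and 1360 normalized reads in cKO replicates 1 to 4, against 1499, 1544, 1421 and 1536 in WT replicates 1 to 4. H2-K1 had 581, 1357, 621 and 659 in cKO replicates 1 to 4, against 913, 949, 837 and 974 in WT replicates 1 to 4. B2m had 3153, 6046, 3181 and 3347 in cKO replicates 1 to 4, against 4332, 4441, 3405 and 4168 in WT replicates 1 to 4. For all 3 genes cKO replicate 2 was above every WT library and the other 3 cKO libraries were below every WT library. The log2 fold changes were 0.02 for H2-D1 (SE 0.35), −0.28 for H2-K1 (SE 0.23) and −0.11 for B2m (SE 0.20), with adjusted p of 0.989, 0.742 and 0.915. Heavy chain genes are alike in sequence and their values are uncertain to the extent that reads were split among them. B2m was the most abundant member per length, at 4572 normalized reads per kilobase of exon in cKO and 4752 in WT. Next came Ifi27, at 927 in cKO and 1129 in WT, and H2-D1, at 674 in cKO and 582 in WT, on the same scale.

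The peptide supply genes of the MHC class I group include the transporter subunits Tap1 and Tap2, tapasin (Tapbp), which holds the class I molecule at the transporter, and the immunoproteasome subunits Psmb8 and Psmb9. Tapbp had 648, 799, 512 and 649 normalized reads in cKO replicates 1 to 4, against 565, 545, 421 and 479 in WT replicates 1 to 4. cKO replicates 1, 2 and 4 lay above all WT libraries and cKO replicate 3 within their range, with a log2 fold change of 0.37 (SE 0.15). Its limma p was 0.0335 over all genes, with an adjusted p of 0.540. Without cKO replicate 2 the log2 fold change was 0.26 (SE 0.14). Tap1 had 135, 264, 88.5 and 75.6 in cKO replicates 1 to 4, against 107, 90.4, 125 and 121 in WT replicates 1 to 4. Psmb8 had 81.5, 249, 130 and 112 in cKO replicates 1 to 4, against 127, 100.6, 126 and 92.4 in WT replicates 1 to 4. Tap1 and Psmb8, chosen after their values were seen, were both highest in cKO replicate 2, at 2.46-fold and 2.22-fold of the median of the other 7 libraries. Without it the log2 fold changes were −0.18 (SE 0.24) for Tap1 and −0.06 (SE 0.23) for Psmb8, against 0.18 (SE 0.35) and 0.25 (SE 0.31) with it. Tap2 averaged 297 ± 77.0 normalized reads in cKO and 271 ± 61.8 in WT, and Psmb9 65.9 ± 41.4 in cKO and 57.4 ± 26.8 in WT (SD, n = 4 each). Tap1 and Psmb9 overlap on opposite strands, and so do B2m and Patl2. Since the sources used here do not give the strand setting of the authors' counting, their reads may not be fully separated.

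Without cKO replicate 2 the members' values shifted to the low side of WT, with no member past the test. Of the 35, 25 had negative and 10 positive log2 fold changes, with a median of −0.16, beside −0.02 for all genes tested in the same way. 0 members had an adjusted p under 0.05, where 5 of 25396 genes did (0.0197%), and the lowest was 0.309, for H2-K1. At an unadjusted p under 0.05 there were 4 members, all lower in cKO, or 11.4% of 35, against 5.5% of all genes lower. They were H2-K1, with a log2 fold change of −0.57 (SE 0.098), Xaf1, with −0.51 (SE 0.15), H2-D1, with −0.37 (SE 0.10), and B2m, with −0.33 (SE 0.099). In 7 members all 3 remaining cKO libraries lay below all WT libraries, which was so for 4.79% of all genes tested. These were the same 4 genes with Gbp2, Rsad2 and Usp18. The library was singled out after its values were seen, and leaving out the highest cKO library lowers the cKO mean by construction, so these counts are a description of the other 7 libraries. Leaving out WT replicate 4 instead moved the signs the opposite way, to 24 positive and 11 negative, with a median of 0.07. Markers of oligodendrocytes were also on the low side in cKO. All 9 had negative log2 fold changes, with a median of −0.27 over all 8 libraries and −0.31 without cKO replicate 2. Over all 8 libraries 3 of the 9 had an unadjusted limma p under 0.05, against 4.6% of all genes lower. The groups did not overlap for 2 of the 9, against 4.92% of all genes tested. The lowest limma adjusted p of these markers was 0.261. Their summed level was 95582 to 147570 normalized reads in cKO libraries, against 117434 to 173087 in WT libraries (two-sided exact permutation p = 0.2). All 10 choroid plexus markers and all 5 erythrocyte markers had negative log2 fold changes too. Their medians were −0.63 and −0.20 over all 8 libraries, and −0.35 and −0.30 without cKO replicate 2. The remaining marker lists held both signs. The part of these markers in the members' values was not tested. In bulk tissue, fewer cells of a type and less RNA per cell cannot be told apart.

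**Figure D3:**
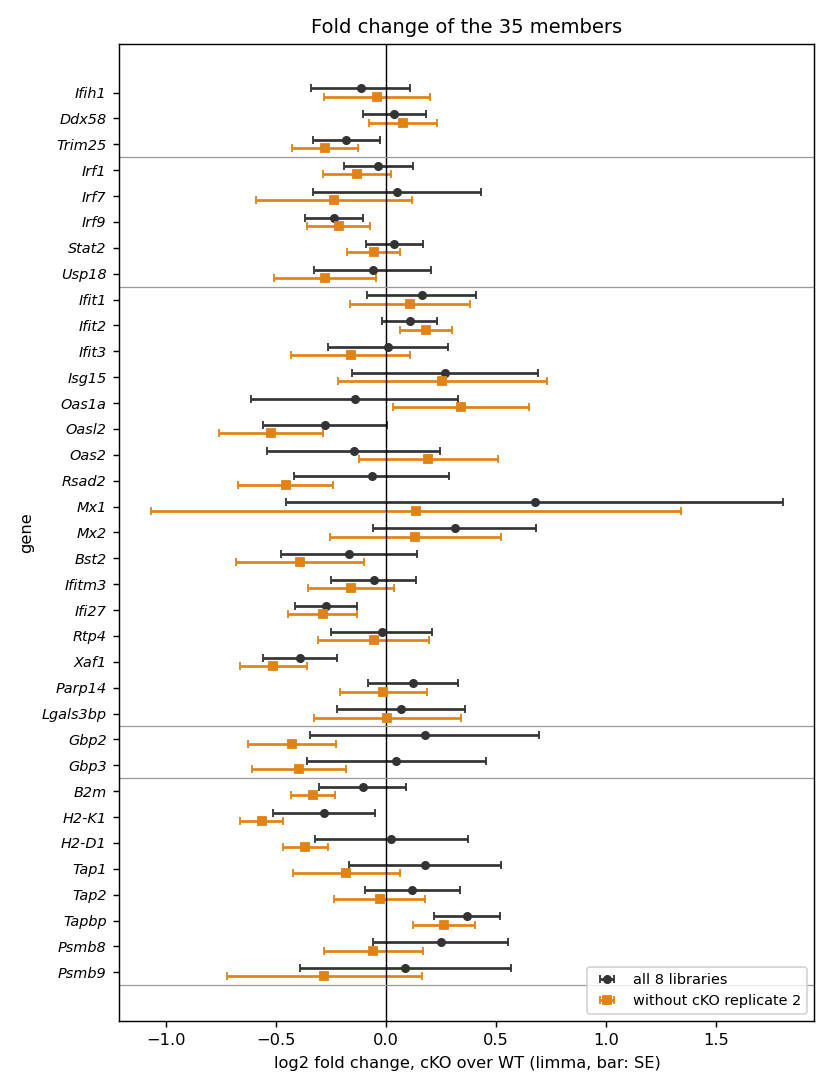
Log2 fold change of cKO over WT with its SE for the 35 members, from all 8 libraries (black circles) and without cKO replicate 2 (orange squares). The squares lie left of 0 for 25 members, the circles for 16, and no member passed the adjusted threshold in either fit.

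The rest of the pathway was read from 9 further lists of 157 genes, 139 of them in the table. No listed gene had a limma adjusted p under 0.05. The groups did not overlap for 1 of 6 receptor genes and 1 of 10 JAK and STAT genes. The same held for 1 of 17 sensors and adaptors and 1 of 12 peptide loading genes. In the other lists the groups overlapped for every gene, where they did not for 4.92% of all genes tested. Transcripts of interferons themselves were at the limit of counting. Of 21 interferon genes listed, 6 were in the table and 0 passed the filter, and Ifng had no read in any cKO library, which allows up to 3 reads, and 5 reads in WT replicate 3. All 6 receptor genes were tested, 4 with positive and 2 with negative log2 fold changes and a median of 0.04. Ifngr2, a chain of the interferon-gamma receptor, averaged 3237 ± 383 normalized reads in cKO and 3107 ± 114 in WT, and Ifnar1, a chain of the type I receptor, 1778 ± 110 in cKO and 1697 ± 156 in WT (SD, n = 4 each). Ifnlr1, the interferon-lambda receptor chain, had 8.47, 5.02, 7.65 and 13.4 in cKO replicates 1 to 4, against 19.8, 31.5, 13.9 and 24.2 in WT replicates 1 to 4. Its groups did not overlap, at a log2 fold change of −1.29 (SE 0.43, limma adjusted p = 0.496) and few reads.

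Of 10 JAK and STAT genes with their regulators, 6 had positive and 4 negative log2 fold changes, with a median of 0.01. Tyk2, a kinase bound to the type I receptor, had 742, 990, 827 and 865 normalized reads in cKO replicates 1 to 4, against 1108, 1014, 1011 and 996 in WT replicates 1 to 4. All 4 cKO libraries lay below the WT ones, at a log2 fold change of −0.28 (SE 0.10, limma adjusted p = 0.519). Stat3 and Jak1 had log2 fold changes of 0.32 (SE 0.11) and 0.17 (SE 0.070), with adjusted p of 0.510 and 0.549. Pias1, an inhibitor of STAT signalling and the other highly expressed gene of this list, had 0.06 (SE 0.078). Among 17 further sensors and adaptors, 9 were positive and 8 negative, with a median of 0.04, or −0.06 without cKO replicate 2. Ikbke, a kinase that activates IRF3, had 78.3, 53.2, 55.7 and 68.9 in cKO replicates 1 to 4, against 87.4, 117, 88.3 and 92.4 in WT replicates 1 to 4. Its groups did not overlap either, at −0.59 (SE 0.21, adjusted p = 0.515), while its relative Tbk1 had 0.15 (SE 0.083) and the adaptor Traf3 −0.05 (SE 0.15).

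Of 47 further interferon-stimulated genes 46 were tested, and 16 had positive and 30 negative log2 fold changes, with a median of −0.09, or −0.19 without cKO replicate 2. Phf11d had −1.21 (SE 0.45, limma adjusted p = 0.519) and Ifi207, a gene of the nucleic-acid-binding interferon-inducible family, 1.38 (SE 0.62, adjusted p = 0.574), both from few reads. The abundant genes Adar, an RNA-editing enzyme, and Znfx1, an RNA helicase, had 0.19 (SE 0.17) and 0.22 (SE 0.12). cKO replicate 2 was the highest library for 11 of these 47 genes, against 15.4% of all genes tested. WT replicate 4 was the highest for 10, against 9.57% of all genes tested. Their summed level was 15870 normalized reads in cKO replicate 2 and 15032 to 15512 in the other cKO libraries, against 13496 to 16402 in WT libraries. No library stood apart in this sum, in which abundant genes weigh most.

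The list of further interferon-gamma-inducible genes differed in its summed level. It holds 19 genes, mainly GBPs and immunity-related GTPases, which attack membranes of vacuoles that hold pathogens. cKO replicate 2 was the highest library for 15 of the 19, against 15.4% of all genes tested. The summed level was 2262, 9996, 2122 and 2144 normalized reads in cKO replicates 1 to 4, against 2306, 2894, 2239 and 2929 in WT replicates 1 to 4. Of 18 tested genes, 12 had positive and 6 negative log2 fold changes, and the median of 0.27 over all 8 libraries became −0.31 without cKO replicate 2. Gbp7 had 237, 733, 293 and 293 in cKO replicates 1 to 4, against 339, 332, 306 and 358 in WT replicates 1 to 4. Irgm1, a regulator of the other GTPases, had 379, 977, 366 and 436 in cKO replicates 1 to 4, against 430, 352, 350 and 450 in WT replicates 1 to 4. Larger peaks, chosen after they were seen, were those of Gbp4, at 1550 in cKO replicate 2 against 60.1 to 195 elsewhere, and of Iigp1, at 1015 against 67.7 to 229 elsewhere. Gbp5, Igtp and Tgtp2 had 698, 759 and 978 normalized reads in that library, each over 4-fold above the next highest library. Tgtp1 and Tgtp2 are near-identical copies, so their split is uncertain. Irf8, a factor of microglia and other myeloid cells, was lowest in cKO replicate 2, at 133 against 162 to 220 elsewhere.

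Other MHC class I genes followed the classical ones in part. Of 19 listed, 16 were in the table and 15 were tested, with 7 positive and 8 negative log2 fold changes. The median was −0.07, and −0.23 without cKO replicate 2. That library was the highest for 9 of the 16, against 15.4% of all genes tested. H2-Q4, chosen after its values were seen, had 152, 644, 127 and 124 normalized reads in cKO replicates 1 to 4, against 211, 265, 178 and 232 in WT replicates 1 to 4. H2-T22 had 703, 852, 687 and 721 in cKO replicates 1 to 4, against 794, 783, 712 and 813 in WT replicates 1 to 4, a smaller peak in the same library. Fcgrt, a class I-like receptor for IgG and albumin, had a log2 fold change of 0.13 (SE 0.16). The 12 genes of general peptide loading and of the proteasome had 8 positive and 4 negative values, with a median of 0.03. Psme3, a proteasome activator subunit, had 4370, 4706, 4812 and 4550 in cKO replicates 1 to 4, against 3837, 4012, 4227 and 4278 in WT replicates 1 to 4. All cKO libraries exceeded all WT libraries, at a log2 fold change of 0.17 (SE 0.068, limma adjusted p = 0.529). The chaperones Calr and Canx had 0.11 (SE 0.11) and 0.02 (SE 0.068).

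MHC class II genes, which interferon-gamma induces in microglia and macrophages, were high in cKO replicate 2 and in WT replicate 2. Their summed level over 6 genes was 825, 2014, 760 and 789 normalized reads in cKO replicates 1 to 4, against 610, 1217, 802 and 841 in WT replicates 1 to 4. Cd74, the invariant chain, had 80.4, 687, 88.5 and 75.6 in cKO replicates 1 to 4, against 51.0, 281, 108 and 193 in WT replicates 1 to 4. The list's median log2 fold change was 0.12 over all 8 libraries and −0.37 without cKO replicate 2. H2-DMa, which edits class II peptides, had 554, 533, 491 and 483 in cKO replicates 1 to 4, against 367, 398, 530 and 350 in WT replicates 1 to 4, without a peak in either library. Its log2 fold change was 0.34 (SE 0.14, limma adjusted p = 0.546).

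**Figure D4:**
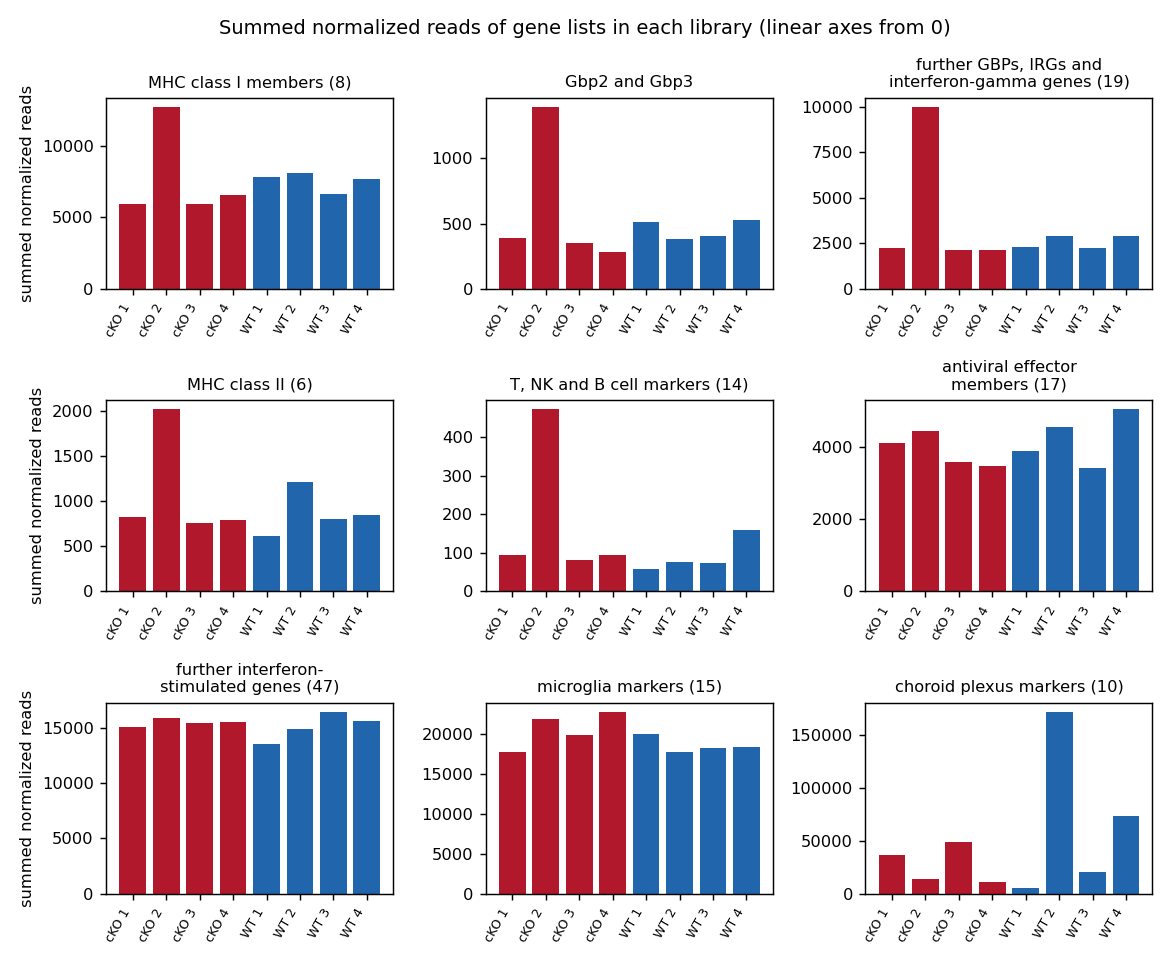
Summed normalized reads of 9 gene lists in each of 4 cKO (red) and 4 WT (blue) libraries, on linear axes from 0. The sums of MHC class I, the GBPs, the interferon-gamma genes, MHC class II and the T, NK and B cell markers peak in cKO replicate 2. Those of the antiviral effectors and further interferon-stimulated genes do not, although cKO replicate 2 is the highest library for some genes of both lists. Choroid plexus markers peak in WT replicate 2.

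Lymphocyte markers were also highest in cKO replicate 2. The 14 measured T, NK and B cell markers summed to 94.2, 471, 81.9 and 93.8 normalized reads in cKO replicates 1 to 4, against 58.3, 76.2, 73.4 and 160 in WT replicates 1 to 4 (two-sided exact permutation p = 0.457). Without cKO replicate 2 the log2 ratio of cKO over WT sums was −0.03, against 1.01 with it. In cKO replicate 2 the granzyme gene Gzma had 171 normalized reads, against 0 to 13.8 elsewhere. The CD8 chains Cd8a and Cd8b1 had 58.2 and 35.1 in that library, against at most 12.1 elsewhere for each, and Cd3e and Cd3g had 37.1 and 38.1, against at most 9.53 elsewhere. Cd4 at 17.1 and Trac at 19.1 in that library were within the range of the others. The B cell marker Ms4a1 was at 0 there. These markers were named after their values were seen, and their part in the members' values was not tested.

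Summed markers of microglia and endothelial cells did not show a peak of that size. Summed microglia markers, over 15 genes, were 17832, 21883, 19938 and 22789 normalized reads in cKO replicates 1 to 4, against 20072, 17728, 18300 and 18414 in WT replicates 1 to 4 (two-sided exact permutation p = 0.229). Among them C1qa, C1qb and C1qc were highest in cKO replicate 2, at 2568, 3003 and 2114, while Tmem119 and Cx3cr1 were within the range of the other libraries. Endothelial markers, over 11 genes, summed to 10827 to 12931 in cKO, with the highest value in cKO replicate 2, and 11462 to 12823 in WT. The log2 ratio of cKO over WT sums was −0.07 (two-sided exact permutation p = 0.371). Without cKO replicate 2 it was −0.12 (two-sided exact permutation p = 0.0857). Monocyte and granulocyte markers, over 9 genes, had their highest sum in cKO replicate 2. It was 612 there, against 248 to 469 in the other cKO libraries and 302 to 394 in WT. Ly6g was at 0 in all cKO libraries. How these amounts bear on the members was not tested.

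How far 1 library stood out was also counted over the whole table. cKO replicate 2 had 105 genes with at least 50 normalized reads and at least 2-fold the value of every other library. Of these, 22 belong to the members and pathway lists, among them the members Gbp2 and H2-D1 and 13 genes of the interferon-gamma list. WT replicate 1 had 132 such genes, none of them a member or a listed pathway gene, and WT replicate 2 had 47, with 1 listed. The other 5 libraries had 9 to 16 such genes each, with 0 listed.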

How the data were processed

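RNA was extracted with Trizol and sequenced from stranded mRNA libraries, per the labels' protocols. STAR, StringTie and DESeq2 were used on build mm9, per the submitters' processing notes, which give no versions. The sources used here do not give the roles of these tools, the annotation or the strand setting. The authors deposited 1 table of log2 values per library, equal to log2(reads / size factor + 1). Since 100% of these values came out as whole reads (tolerance 0.001), the reads per library could be recovered. Beside these stand a log2 fold change, a p-value and an FDR that the authors deposited, and 2 columns of group means that were not used. Because values were deposited on a log2 scale, limma 3.58.1 in R 4.3.3 (mean-variance trend, robust) was fitted to the deposited log2 values (pseudocount 1). The fit used 4 cKO and 4 WT libraries and the 26135 genes that reached a normalized value of 1 in 4 or more libraries. Adjusted p is Benjamini-Hochberg over all of these genes, with a threshold of 0.05. The procedure was tested on simulated data with the same spread setting for every gene and no outlying library. That test does not show how well changes are found in members that vary as widely as these. Sums of marker lists were compared by an exact permutation test, which for 4 against 4 gives no p below 0.0286. Alternatives were quantile normalization, no filter, a filter at 10, a pseudocount of 0.1, limma-voom on the recovered reads, array weights, a replicate block, and leaving out each library in turn.

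The members and the gene lists were chosen with earlier results of these data known. All 35 members are named. Values in every library are given for members with an unadjusted p under 0.05 or no overlap, the 5 with the largest absolute fold change, the 3 with the highest mean and the lowest p of each role. From each pathway list, genes with an unadjusted p under 0.05 or no overlap and the 2 with the highest mean are named. Genes outside this rule are to be read as chosen after their values were seen, also where this is not said beside them. Exon lengths are from GENCODE M21, matched by gene identifier, and promoter windows from RefSeq, both of GRCm38, with no coordinate taken from the deposited table. A count of 0 allows up to 3 reads, which covers counting error only. Figures were drawn with matplotlib 3.10.9.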

Additional observations from a re-analysis of the deposited data

Results flagged for a closer look

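A library was set apart from the other 3 of its group when its gap to the nearest one, over the range of the group, exceeded Dixon's 95% critical value for 4 samples. Of 182 pairs of a gene and a group compared, 20 met this. Part of these genes, such as Igtp, Tgtp2 and H2-Q4, were chosen after their values were seen. The count of 20 can therefore not be set against a chance rate. The members alone made up 70 of the pairs, and 6 members met the rule in cKO and 2 in WT. By chance alone about 1 in 20 groups would meet it, and 8.69% of all genes tested did in cKO and 7.62% in WT. The members were themselves chosen with earlier results of these data known.

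Among the members, cKO replicate 2 stood above the other cKO libraries for Gbp2 (649 normalized reads), B2m (6046), H2-K1 (1357), Rsad2 (189) and Xaf1 (202.8). It stood apart on the high side for 1.56% of all genes. Lgals3bp was low in cKO replicate 4, at 210. WT replicate 4 stood above the other WT libraries for Irf7 (120) and Parp14 (186).

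Among other genes of the pathway, cKO replicate 2 was apart for Igtp (759), Tgtp2 (978), H2-Q4 (644), H2-Eb1 (197), Cd74 (687) and Cxcl9 (3.01, with 0 in the other cKO libraries). WT replicate 1 was apart for Ifngr2 (3278) and Tyk2 (1108). Among lymphocyte markers, Gzmb was high in cKO replicate 2 (45.2), while WT replicate 4 had Cd3g at 9.50 and Nkg7 at 13.0 and WT replicate 1 had Gzma at 5.20, with 0 in the other WT libraries. What set these libraries apart was not tested.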

How the results depend on the processing

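No member passed the adjusted threshold under the main settings or any of the 15 alternatives, and the lowest adjusted p of a member over all of them was 0.309. The count over all genes, 5, became 8 with array weights and 2 with a replicate block, and ranged from 3 to 7 when each library was left out in turn. Members without overlap ranged from 0 to 7 under the same leave-outs, the 7 coming without cKO replicate 2. The log2 ratio of summed T, NK and B cell markers ranged from −0.030 to 1.42, with the lowest value without cKO replicate 2. The members' median log2 fold change, 0.02, was 0.09 with quantile normalization, −0.11 with array weights, −0.16 without cKO replicate 2 and between −0.04 and 0.07 without any other library. Signs changed for 6 members under quantile normalization, 10 with array weights, 13 without cKO replicate 2, 4 to 6 without any other library, 1 (Ifit3) with limma-voom and 0 under the remaining alternatives. Over all genes tested, the deviations of same-numbered libraries correlated at −0.0037, 0.029, 0.021 and −0.040, so no pairing by replicate number was seen. These correlations cannot tell whether same-numbered mice were related or handled together. With the replicate block 1 member instead of 2 had an unadjusted p under 0.05. Depth limits Mx1, Ifnlr1, the interferon genes and the lymphocyte markers, all with few reads.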

Other observations

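cKO replicate 2 differed from the other 7 libraries in genes outside the interferon and MHC lists as well, named here after their values were seen. Of its 105 genes with at least 50 normalized reads and at least 2-fold the value of every other library, all but 22 were in no list of members or pathway genes. Plin4, which coats lipid droplets, had 2432 normalized reads in that library, against at most 137 elsewhere. The cell cycle inhibitor Cdkn1a had 2372, against at most 488, and Lcn2, an iron-siderophore-binding protein of the acute phase, 210, against at most 15.6. Hif3a, a hypoxia-inducible factor subunit, had 1527, against at most 279.8, and Xdh, xanthine dehydrogenase, 1100.3, against at most 219.5. Etnppl, an astrocyte enzyme of ethanolamine phosphate breakdown, had 3536, against at most 909.

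Cd274, the gene of the checkpoint ligand PD-L1 and an interferon-gamma target, had 518 normalized reads in cKO replicate 2, against at most 158 elsewhere. These values come from 1 library and have no replicate.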
